A study of Mus musculus with 8 samples.

Results

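Copying the genome in S phase needs a set of proteins that licenses origins, unwinds the helix, synthesises both strands and rebuilds chromatin behind the fork, and 36 genes that encode such proteins in the mouse are described here across the cFos and Luc libraries of 4 stromal cell clones. The genes were taken by symbol from a list of replication genes and make up 36 of the 23500 genes measured. All 36 passed the filter on low values, which 11162 genes passed in all.

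The cFos group holds 4 cultures, 1 from each of clones 2, 4, 8 and 12, of mouse bone marrow-derived mesenchymal stem cells with a knockout of p53, the tumour suppressor that restrains the cell cycle after DNA damage. They carried a retrovirus with the cDNA of cFos, a subunit of the transcription factor AP-1. The Luc group holds the same 4 clones, also without p53, with a retrovirus for luciferase, an enzyme with no role in mouse cells. All cells were below passage 20, each clone is a single clone, and polyadenylated RNA was sequenced once per clone and arm. No group has intact p53, the promoter that drives the retroviral cDNAs is not given in the sources used here, and a p-value measures the spread between 4 clones of this one kind.

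The libraries held 6.93 to 9.14 gigabases of transcript coverage, and 10970 to 11121 genes reached 1 FPKM (fragments per kilobase, a level corrected for transcript length and library depth). Fos measured 505 to 1019 FPKM in the cFos libraries and 41.1 to 302 FPKM in the Luc libraries, where the 302 FPKM belonged to the Luc library of clone 8 (called Luc 8 here, and likewise for the others). Of 13 stromal markers, 9 (Pdgfra, Pdgfrb, Ly6a, Cd44, Vcam1, Prrx1, Col1a1, Col1a2 and Cxcl12) reached 1 FPKM in all 8 libraries. The other 4, Eng, Nt5e, Thy1 and Lepr, did not. Thy1 measured 0.142, 0.398, 15.9 and 23.8 FPKM in cFos 2, 4, 8 and 12, against 0.672, 0.0916, 0.597 and 21.9 FPKM in Luc 2, 4, 8 and 12. Nt5e measured 0.552 to 7.94 FPKM in cFos libraries and 0.167 to 2.48 FPKM in Luc libraries. The 13 markers summed to 3486 to 5205 FPKM in cFos libraries and to 4755 to 10236 FPKM in Luc libraries, the highest being Luc 8. Most of the Luc 8 sum was Cxcl12, with transcript entries of 4235 and 2888 FPKM. Of the 9 markers, Cxcl12, Vcam1 and Pdgfra had their highest Luc value in Luc 8, and Ly6a and Cd44 their lowest. Of 12 blood and endothelial markers, 0 reached 1 FPKM in all libraries and 10 stayed below 1 FPKM in all, with Cdh5 listed at 0. They summed to 2.09 to 3.39 FPKM in cFos libraries and 2.18 to 6.41 FPKM in Luc libraries. The library cFos 8 stood apart as well: the 10 most abundant genes took 11.6% of the FPKM in cFos 8 and 7.56% to 9.74% elsewhere. A transcript entry without a gene symbol measured 1502 FPKM in cFos 8 and 108 to 287 FPKM in the other libraries. Rmrp, a noncoding RNA, measured 22.8 FPKM in cFos 8 against 0.282 FPKM in Luc 8. The part of these differences in the results below was not tested.

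As background, origins are bound by the origin recognition complex, which with Cdc6 and Cdt1 loads the MCM helicase in G1. Cdc45 and the GINS complex join the helicase at the start of S phase, primase and the DNA polymerases copy the strands, and the sliding clamp PCNA holds the polymerases on DNA. Many of these genes are transcribed late in G1 under E2F factors, which the retinoblastoma protein holds back until cyclin-dependent kinases phosphorylate it. Their RNA level tends to follow the fraction of cells near S phase, and in bulk RNA fewer such cells and less RNA per cell cannot be told apart.

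To show what the upstream sequences of these genes share, the 250 bases before each RefSeq start (build GRCm38.p6) were searched on both strands for 4 E2F-type motifs, TTTCCCGC, TTTCGCGC, TTTGCCGC and TTTGGCGC. A start was found for 30 of the 36 genes, with 35 promoters, and 9 promoters of 9 genes (Cdc6, Gins3, Mcm5, Mcm6, Mcm7, Orc1, Pola1, Rfc3 and Uhrf1) held a motif. That was 25.7% of the replication gene promoters, against 1.86% of all 32851 mouse promoters in the RefSeq set (611 promoters). CCAAT, searched on both strands in the same window, stood in 22 of the 35 (62.9%) and in 33.8% of all. For both motifs all promoters were counted, with no match to the replication genes in expression or base content. Windows are shown for the helicase and loading genes that held a motif, because these genes act first and are named in the results. Of the same genes, Mcm2, Mcm3, Orc6 and Cdt1 held none, and no start was found for Mcm4. Capitals mark the E2F-type motifs, each line runs 5′ to 3′ on the gene's strand, and matches that overlap form 1 run of capitals. The windows lie at chr1:128359730-128359830 (minus strand, Mcm6), chr8:75109341-75109382 (plus strand, Mcm5), chr5:138172026-138172063 (minus strand, Mcm7), chr4:108579412-108579449 (plus strand, Orc1) and chr11:98907998-98908035 (plus strand, Cdc6).
Mcm6: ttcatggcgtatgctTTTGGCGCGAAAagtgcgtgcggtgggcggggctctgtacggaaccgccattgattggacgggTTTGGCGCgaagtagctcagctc
Mcm5: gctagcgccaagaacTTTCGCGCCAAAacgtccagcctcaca
Mcm7: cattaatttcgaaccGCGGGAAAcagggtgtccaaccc
Orc1: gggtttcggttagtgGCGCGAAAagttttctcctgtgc
Cdc6: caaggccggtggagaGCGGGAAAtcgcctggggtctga
The Mcm6 window holds 3 matches, the Mcm5 window 2 that overlap on opposite strands, and the other windows 1 each. A match is a description of letters and not of binding, which was not measured.

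Across the 4 clones, 34 of the 36 replication genes had a lower mean log2(FPKM + 0.5) in cFos than in Luc cells, but no gene passed the test. The question is whether cFos changes the level of the replication machinery in these p53-deficient cells. On this scale the differences (cFos minus Luc) ran from -0.63 for Mcm5 to 0.22 for Cdc45, with a median of -0.24, while the median over all 11162 tested genes was -0.06. After scaling the libraries to a common median, 29 of 36 were below 0, and 30 of 36 after upper quartile scaling. With single libraries left out, the count ran from 28 without Luc 12 to 36 without Luc 8. The share of all tested genes below 0 was not counted, so the 34 of 36 has no background. With limma and Benjamini-Hochberg adjustment, 0 of 36 were called lower (background 2.62% of all tested genes) and 0 were called higher (background 2.92%). At an unadjusted p under 0.05, 3 were lower, Mcm4, Prim1 and Rfc5, a share below the background of 11.1%, and 0 were higher. With the clone as a block, again 0 of 36 passed as lower (background 4.28%) or as higher (background 4.51%).

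The clones did not move alike. In clone 8, 2 of 36 genes were lower in the cFos library, Mcm4 and Rfc5 (background 51.9%), and 34 were higher. In clone 2, 34 were lower (background 54.7%), in clone 4 also 34 (background 62.1%), and in clone 12 33 (background 51.8%). Median within-clone differences (log2 scale, cFos minus Luc) were -0.65, -0.43, 0.57 and -0.44 for clones 2, 4, 8 and 12, with medians over all tested genes of -0.06, -0.09, -0.02 and -0.02 in the same order. Measured against those all-gene medians, 1 gene rather than 2 was lower in clone 8 and 33 rather than 34 in clone 4, Rfc5 and Cdt1 being the genes that switched. Lower in clones 2, 4 and 12 and higher in clone 8 was the pattern of 28 genes (background 10.5%), and the same direction in all 4 clones that of 2 genes (background 36.2%). There is 1 library per clone and arm, so these are counts of values and no test within a clone was made.

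**Figure D1:**
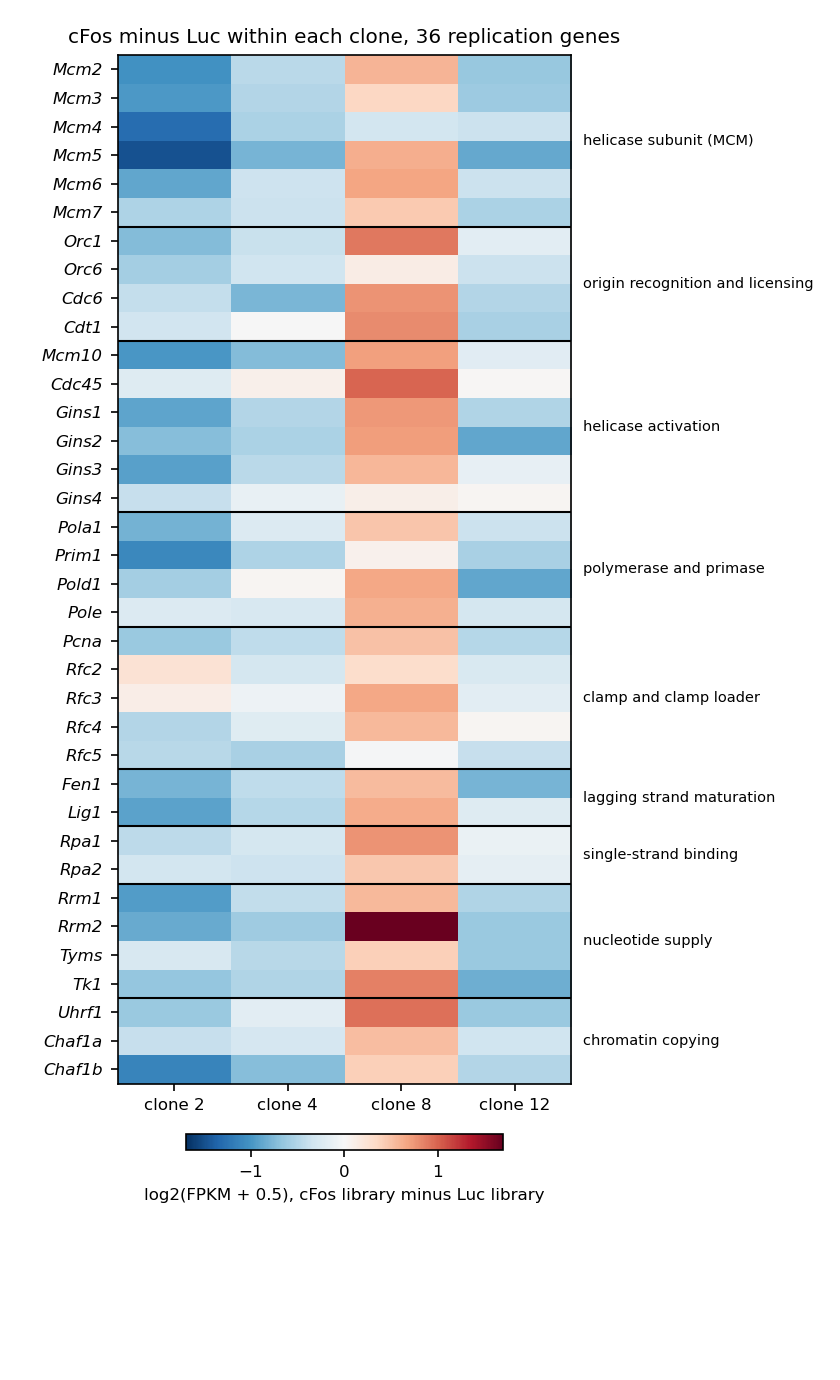
Difference of log2(FPKM + 0.5) between the cFos and the Luc library of each clone (columns) for the 36 replication genes (rows, grouped by role); blue is lower and red is higher in cFos. The clone 8 column is red for 34 genes, whereas clones 2, 4 and 12 are blue for 33 or 34 genes each.

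Both libraries of clone 8 were then set beside the same arm of the other clones. Luc 8 had the lowest level of the 4 Luc libraries for 35 of 36 genes, Mcm4 being the exception (background 37.1%), and the lowest of all 8 libraries for 26 (background 21.7%). Divided by the mean of Luc 2, 4 and 12, its levels ran from 0.338 for Gins1 to 0.866 for Mcm4, with a median of 0.533, against a median of 0.944 over all tested genes. In the cFos arm, cFos 8 over the mean of the other cFos libraries ran from 0.793 for Cdt1 to 3.10 for Rrm2, with a median of 1.09 (all tested genes 0.973). It was the highest cFos library for 15 genes (background 25.9%), and cFos 2 was the lowest cFos library for 25 (background 21.1%). The larger departure was in Luc 8: the FPKM of the 36 genes summed to 675, 862, 914 and 778 in cFos 2, 4, 8 and 12, against 1082, 1144, 606 and 1066 in Luc 2, 4, 8 and 12.

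The authors' own confidence limits, which cover the error of estimation in 1 library and not that between cultures, were compared for the 26 genes with a single transcript entry. The upper limit in Luc 8 was below the lower limits of the other 3 Luc libraries for 24 of 26, all but Mcm4 and Rrm2. In clone 8 the limits placed cFos above Luc for 22 of 26. They placed cFos below Luc for 24, 21 and 20 of 26 genes in clones 2, 4 and 12. The same counts were not made over all tested genes, so these cannot be set against a general rate. For Mcm5 the limits were 13.7 to 15.1 FPKM in Luc 8 and 34.8 to 36.7 FPKM in Luc 2.

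**Figure D2:**
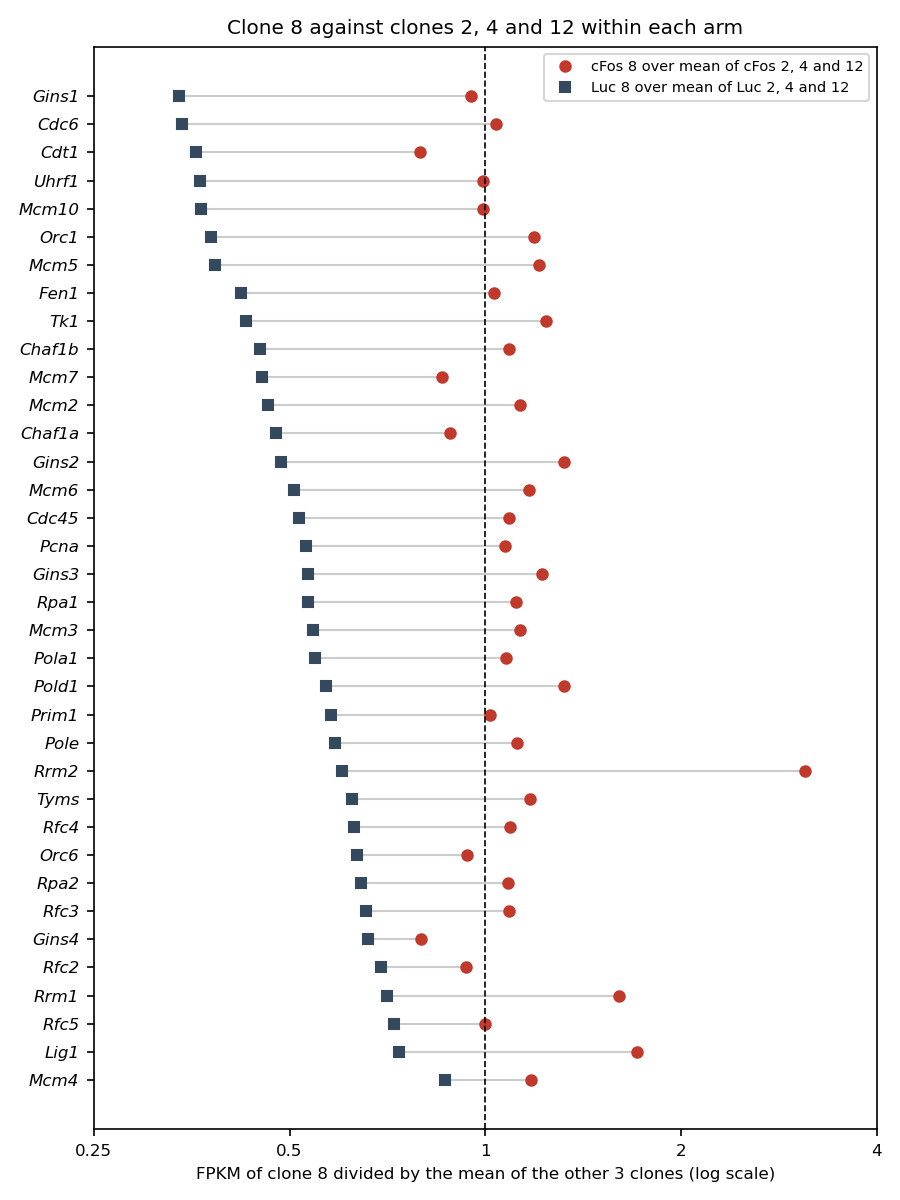
FPKM in clone 8 divided by the mean of clones 2, 4 and 12, for each of the 36 genes, in the cFos arm (red circles) and the Luc arm (dark squares), on a log axis. All 36 squares lie below 1, between 0.338 and 0.866, while the circles lie on both sides of 1 with a median of 1.09 and Rrm2 at 3.10.

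The difference between clone 8 and the other clones was tested as a term in the model. This clone 8 term is the cFos minus Luc difference in clone 8 less that in clones 2, 4 and 12. It was above 0 for all 36 genes, from 0.26 for Gins4 to 2.38 for Rrm2, with a median of 1.06. Over all tested genes the median was 0.04, and the share above 0 was not counted. By limma, 0 of 36 passed the adjusted threshold as higher (background 0.0448%, 5 genes) or as lower (background 0.0179%, 2 genes). At an unadjusted p under 0.05, 31 of 36 were higher (background 7.36%). A single pair of libraries stands for clone 8 and its spread is taken from the other 3 clones, so the test has little power at the size of the median term and the absence of calls says little about such differences.

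Leaving out Luc 8, the lowest Luc library for 35 genes, brought 6 of 36 genes past the adjusted threshold as lower in cFos (background 2.64%) and none as higher (background 2.54%). The 6 were Mcm3, Mcm5, Gins1, Prim1, Fen1 and Chaf1b. All 36 differences were then below 0, with a median of -0.45. Over all tested genes the median was -0.06, and the share below 0 was not counted. In 22 of the 36 genes every cFos library, cFos 8 included, was below every Luc library left (background 13.7%). Without either library of clone 8, 1 gene passed, Chaf1b (background 1.7%). Without clone 8 and with the clone as a block, 7 passed, Mcm2, Mcm3, Mcm5, Gins2, Rrm2, Tk1 and Chaf1b (background 3.85%). The first of these fits sets 4 cFos against 3 Luc libraries, the other 2 rest on 3 clones, and the last was chosen after the values were seen. Because Luc 8 was the lowest Luc library for 35 genes, leaving it out lowers their cFos minus Luc differences by construction. It was lowest for 37.1% of all tested genes, so the backgrounds without Luc 8 are not a like comparison. The clone 8 term was above 0 for all 36 genes, so leaving out clone 8 lowers every difference as well. The backgrounds without clone 8 are thus not a like comparison either. The counts of all 3 fits describe the values and add no support for a lower level in cFos.

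The subunits of the MCM helicase showed the pattern in 5 of 6 genes, and in all 6 the cFos library was lower in clones 2, 4 and 12. Mcm6, the most abundant (chr1:130228168-130256233 in mm9, the build of all gene positions below), measured 39.4, 54.7, 56.6 and 51.4 FPKM in cFos 2, 4, 8 and 12, against 73.3, 70.0, 35.5 and 66.4 FPKM in Luc 2, 4, 8 and 12. Luc 8 was the lowest of the 8 libraries and the other 3 Luc libraries lay above all cFos libraries. The cFos minus Luc difference was -0.23 ± 0.24 (log2, SE, n = 4 clones per arm; limma adjusted p = 0.64). Mcm5 (chr8:77633427-77652338) measured 12.5, 22.9, 22.3 and 19.9 FPKM in cFos 2, 4, 8 and 12, against 35.8, 39.9, 14.4 and 36.6 FPKM in Luc 2, 4, 8 and 12. Its ratio of cFos to Luc was 1.55 in clone 8 and 0.350, 0.574 and 0.543 in clones 2, 4 and 12, and the clone 8 term was 1.66 ± 0.35 (SE; limma adjusted p = 0.21). Without Luc 8, Mcm5 was lower in cFos by a log2 difference of -0.97 (limma adjusted p = 0.039).

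Mcm4 (chr16:15623990-15637493) departed from the other subunits. It measured 26.7, 30.8, 36.7 and 36.2 FPKM in cFos 2, 4, 8 and 12, against 66.2, 45.1, 45.6 and 46.7 FPKM in Luc 2, 4, 8 and 12. Every cFos library was below every Luc library, which held for 1 of the 36 genes (background 7.8%), while 0 of 36 had every cFos library above every Luc library (background 5.86%). Luc 8 lay within the range of the other Luc libraries for Mcm4. The difference was -0.63 ± 0.17 (log2, SE), the smallest adjusted p among the 36 genes by limma (0.066, and 0.090 with the clone as a block). Means were 32.6 ± 4.75 FPKM in cFos and 50.9 ± 10.2 FPKM in Luc cells (SD, n = 4 each). Mcm2, Mcm3 and Mcm7 ranged from 18.1 to 47.1 FPKM in cFos libraries and from 18.4 to 60.8 FPKM in Luc libraries, each with its lowest Luc value in Luc 8.

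The MCM proteins form a hexamer with 1 copy of each subunit, so the make-up of their RNA can be read within each library. Mcm4 took 17.7%, 14.6%, 17.8% and 18.0% of the summed Mcm2 to Mcm7 FPKM in cFos 2, 4, 8 and 12, against 21.98%, 15.4%, 28.4% and 16.0% in Luc 2, 4, 8 and 12. Luc 8 thus had the highest share of Mcm4, and it was the only library in which Mcm4 and not Mcm6 was the most abundant subunit. Mcm5 took 8.3%, 10.9%, 10.8% and 9.9% in cFos 2, 4, 8 and 12, against 11.9%, 13.6%, 9.0% and 12.5% in Luc 2, 4, 8 and 12.

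**Figure D3:**
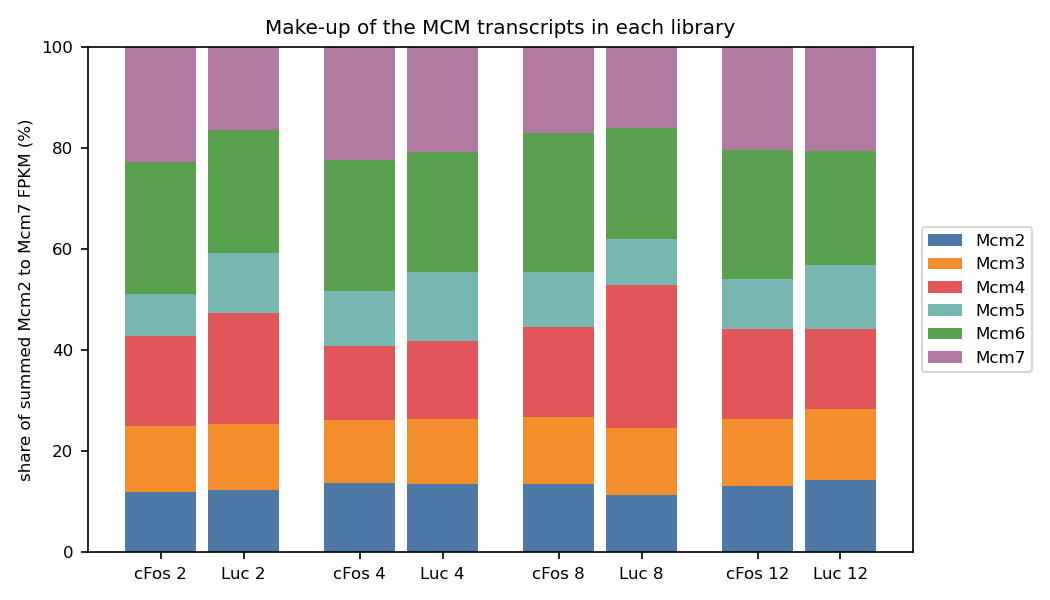
Share of each subunit (colours) in the summed FPKM of Mcm2 to Mcm7, in percent, for the 8 libraries, cFos left of Luc within each clone. The red Mcm4 segment is widest in Luc 8 at 28.4% and lies between 14.6% and 21.98% in the other 7 libraries.

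Of the genes for origin recognition and licensing, all 4 were lower in cFos in clones 2, 4 and 12 and higher in clone 8. Orc6, a subunit of the origin recognition complex and the most abundant of the 4 (chr8:87823531-87832178), measured 19.3, 23.4, 20.4 and 22.6 FPKM in cFos 2, 4, 8 and 12, against 28.9, 29.8, 18.6 and 29.2 FPKM in Luc 2, 4, 8 and 12. Luc 8 stood below all other libraries, and the difference was -0.29 ± 0.17 (log2, SE; limma adjusted p = 0.39). The large subunit Orc1 and the loaders Cdc6 and Cdt1 stood in Luc 8 at 0.378, 0.341 and 0.359 of the mean of the other Luc libraries, below the median of 0.533 over the 36 genes. Cdt1, which in clone 4 differed little (16.2 FPKM in cFos 4 and 16.3 FPKM in Luc 4), was also the gene for which cFos 8 was lowest relative to the other cFos libraries. Orc1 was the least abundant of the 36, with 1.96 to 2.78 FPKM in cFos libraries and 1.20 to 3.63 FPKM in Luc libraries, so the added 0.5 FPKM understates its fold changes.

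Among the genes for helicase activation, 4 of 6 showed the pattern. Gins2, a GINS subunit (chr8:123105166-123112975), measured 18.1, 24.0, 26.5 and 18.2 FPKM in cFos 2, 4, 8 and 12, against 30.2, 35.1, 16.1 and 34.1 FPKM in Luc 2, 4, 8 and 12. Luc 8 was again lowest, cFos 8 was the highest of its arm, and the clone 8 term was 1.42 ± 0.26 (SE; limma adjusted p = 0.19). Gins4, the most abundant of the group (chr8:24337082-24348140), measured 24.997, 27.5, 21.3 and 27.8 FPKM in cFos 2, 4, 8 and 12, against 33.0, 30.0, 19.8 and 27.1 FPKM in Luc 2, 4, 8 and 12. For Gins4 both libraries of clone 8 were the lowest of their arm, and its clone 8 term was the smallest of the 36. Gins1, Gins3 and Mcm10, a factor that helps to start unwinding, lay between 2.74 and 7.24 FPKM in cFos libraries and between 2.76 and 11.2 FPKM in Luc libraries, each lowest among Luc libraries in Luc 8.

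Cdc45, the remaining helicase cofactor, was the 1 gene of this group with a higher mean in cFos. It measured 11.8, 14.6, 14.7 and 14.3 FPKM in cFos 2, 4, 8 and 12, against 13.8, 13.7, 7.15 and 14.1 FPKM in Luc 2, 4, 8 and 12. The difference of 0.22 ± 0.22 (log2, SE; limma adjusted p = 0.63) was -0.01 without Luc 8. Its 2 transcript entries behaved differently. The shorter entry, NM_001161623, measured 4.96, 3.83, 5.003 and 5.24 FPKM in cFos 2, 4, 8 and 12, against 2.64, 2.12, 0.392 and 3.01 FPKM in Luc 2, 4, 8 and 12. Every cFos library was above every Luc library for this entry. It made up 42.2%, 26.2%, 33.9% and 36.6% of the gene's FPKM in cFos 2, 4, 8 and 12, against 19.2%, 15.5%, 5.48% and 21.4% in Luc 2, 4, 8 and 12. In a fit over 13348 transcript entries its difference was 1.21 ± 0.40 (log2, SE; limma adjusted p = 0.13), so it did not pass. Cufflinks divides reads between overlapping transcripts by a model, and this entry was picked after its values were seen.

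The polymerase and primase genes showed the pattern in 3 of 4 cases. Prim1, the catalytic subunit of primase, which lays the RNA primers (chr10:127452271-127467086), measured 10.5, 13.9, 13.1 and 14.3 FPKM in cFos 2, 4, 8 and 12, against 23.0, 20.2, 12.4 and 21.2 FPKM in Luc 2, 4, 8 and 12. Only Luc 8 fell within the cFos range, the difference was -0.52 ± 0.20 (log2, SE; limma adjusted p = 0.19), and without Luc 8 it was -0.71 (adjusted p = 0.026). The catalytic subunits Pola1, Pold1 and Pole ranged from 5.12 to 10.01 FPKM in cFos libraries and from 5.09 to 13.0 FPKM in Luc libraries. For Pold1 the cFos library was higher in clone 4 too (7.63 FPKM, against 7.45 FPKM in Luc 4).

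**Figure D4:**
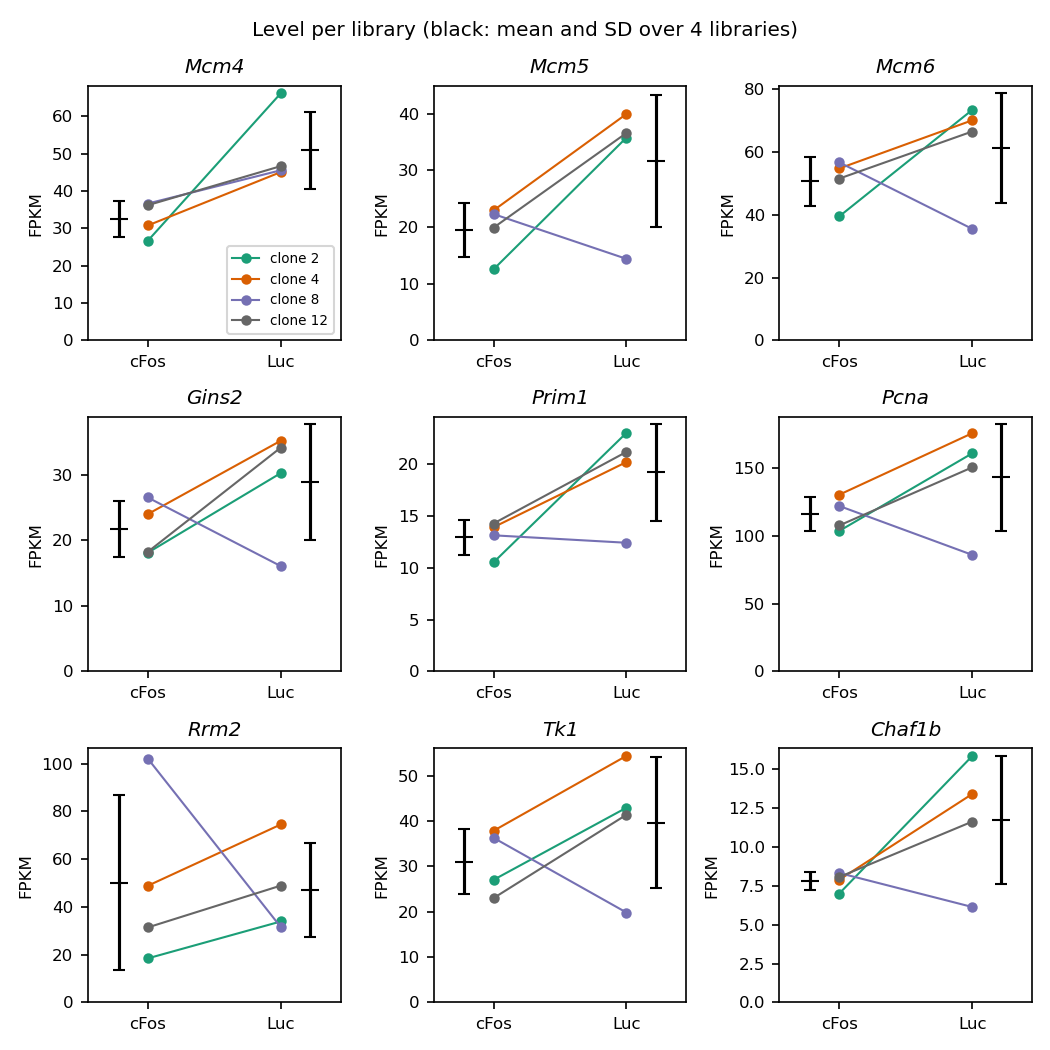
FPKM of 9 replication genes in the cFos and Luc libraries, with a line joining the 2 libraries of each clone (colours) and, in black, the mean and SD over the 4 libraries of each arm. The clone 8 line runs against the other 3 in every panel except Mcm4, and Luc 8 lies at the bottom of the Luc arm in every panel except Mcm4.

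The clamp and its loader were the group with the fewest genes of the pattern, 1 of 5. That gene was Pcna, the sliding clamp and the most abundant of the 36 (chr2:132075022-132078916), with 104, 130, 122 and 108 FPKM in cFos 2, 4, 8 and 12, against 161, 176, 86.0 and 150 FPKM in Luc 2, 4, 8 and 12. Luc 8 alone lay below the cFos libraries and the other Luc libraries all lay above them, for a difference of -0.26 ± 0.22 (log2, SE; limma adjusted p = 0.57). The clamp loader subunit Rfc5 (chr5:117829154-117839032) measured 14.1, 16.7, 15.3 and 15.1 FPKM in cFos 2, 4, 8 and 12, against 19.9, 24.6, 15.5 and 20.0 FPKM in Luc 2, 4, 8 and 12. It was lower in cFos in all 4 clones, by a ratio of 0.986 in clone 8 and of 0.679 to 0.756 in clones 2, 4 and 12 (limma adjusted p = 0.22). The other loader subunits, Rfc2, Rfc3 and Rfc4, had differences of -0.00, 0.12 and -0.03 on the log2 scale and each was higher in cFos in clone 8 and in 1 further clone. Rfc4 shares 185 bases of its locus with Eif4a2, which averaged 108 FPKM, and strand handling is not given in the sources used here, so its values are less certain.

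Genes that finish the lagging strand and coat single-stranded DNA all showed the pattern, 2 of 2 in each group. Fen1, which removes primer flaps (chr19:10273622-10278433), measured 5.88, 7.15, 6.69 and 6.44 FPKM in cFos 2, 4, 8 and 12, against 10.5, 9.82, 4.48 and 11.5 FPKM in Luc 2, 4, 8 and 12. The cFos libraries were close together and the other Luc libraries stood above them, and without Luc 8 the difference was -0.66 (limma adjusted p = 0.026). Lig1, the ligase that seals the fragments (chr7:13862662-13896776), measured 13.5, 13.8, 24.2 and 15.2 FPKM in cFos 2, 4, 8 and 12, against 25.9, 19.6, 15.5 and 17.7 FPKM in Luc 2, 4, 8 and 12. Here cFos 8 was the outlying library of its arm. Lig1 shares 1409 bases with Zswim9, which averaged 2.11 FPKM.
Rpa1, the large subunit of the single-strand binding protein (chr11:75113761-75161885), measured 41.6, 45.2, 47.9 and 42.2 FPKM in cFos 2, 4, 8 and 12, against 56.7, 55.5, 28.1 and 45.8 FPKM in Luc 2, 4, 8 and 12. The mean difference was -0.02 ± 0.21 (log2, SE; limma adjusted p = 0.97), and its sign turned with library scaling. Rpa2, the middle subunit (chr4:132324275-132334661), measured 15.9, 14.6, 16.6 and 15.4 FPKM in cFos 2, 4, 8 and 12, against 19.9, 18.7, 11.9 and 17.1 FPKM in Luc 2, 4, 8 and 12. Luc 8 was the lowest library for Rpa1 and for Rpa2. The other Luc libraries lay above the cFos range for Rpa2, whereas for Rpa1 Luc 12 lay within it.

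Genes for nucleotide supply showed the pattern in all 4 cases and held the widest clone 8 values. Rrm2, the small subunit of ribonucleotide reductase (chr12:25393119-25399011), measured 18.5, 48.9, 102 and 31.4 FPKM in cFos 2, 4, 8 and 12, against 33.9, 74.5, 31.6 and 48.9 FPKM in Luc 2, 4, 8 and 12. Luc 8 was the lowest Luc library, but its confidence limits (30.3 to 32.9 FPKM) overlapped those of Luc 2 (32.7 to 35.1 FPKM). Rrm2 was highest of all 8 libraries in cFos 8, at 3.10 times the mean of the other cFos libraries. Its ratio of cFos to Luc was 3.23 in clone 8 and 0.544 to 0.656 in the other clones, and the clone 8 term of 2.38 ± 0.25 (SE) had an adjusted p of 0.064 by limma. Without clone 2 that term was 2.29 and passed (adjusted p = 0.015). Rrm1, the large subunit (chr7:109590209-109618285), measured 26.2, 28.1, 49.6 and 38.3 FPKM in cFos 2, 4, 8 and 12, against 50.9, 37.9, 33.7 and 54.7 FPKM in Luc 2, 4, 8 and 12. Rrm1 thus also had its highest cFos value in cFos 8.
Tk1, thymidine kinase of the salvage route (chr11:117676833-117687328), measured 27.0, 37.8, 36.3 and 23.0 FPKM in cFos 2, 4, 8 and 12, against 42.9, 54.4, 19.8 and 41.4 FPKM in Luc 2, 4, 8 and 12. Its clone 8 term was 1.53 ± 0.26 (SE; limma adjusted p = 0.19), and all libraries of the Luc arm except Luc 8 exceeded all cFos libraries. Tyms, thymidylate synthase, ranged from 8.52 to 10.95 FPKM in cFos libraries and from 8.13 to 14.05 FPKM in Luc libraries. A pseudogene of Tyms is listed in the tables and may trade reads with it, and Tk1 and Gins2 share 96 and 118 bases with Afmid and Gse1, which averaged 3.72 and 2.84 FPKM.

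The chromatin copying genes showed the pattern in 3 of 3 cases. Uhrf1, which guides maintenance methylation to new DNA (chr17:56442760-56462909), measured 23.6, 31.0, 26.7 and 26.0 FPKM in cFos 2, 4, 8 and 12, against 36.8, 35.1, 13.7 and 40.4 FPKM in Luc 2, 4, 8 and 12. Luc 8 held 0.365 of the mean of the other Luc libraries, and the difference over all clones was -0.12 ± 0.31 (log2, SE; limma adjusted p = 0.87). Chaf1b, a subunit of the histone chaperone CAF-1 (chr16:93884146-93906351), measured 7.0025, 7.89, 8.32 and 8.06 FPKM in cFos 2, 4, 8 and 12, against 15.8, 13.4, 6.14 and 11.6 FPKM in Luc 2, 4, 8 and 12. The cFos libraries lay close together and the Luc libraries did not. It was the 1 gene that passed in each of the 3 fits that left out Luc 8, clone 8, or clone 8 with the clone as a block (log2 differences -0.76, -0.78 and -0.78; limma adjusted p = 0.023, 0.044 and 0.046), while Mcm3 and Mcm5 passed in the first and the last of them. All 3 fits left out Luc 8 and share most of their libraries, so passing in each of them is no added support. Chaf1a, the partner of Chaf1b, measured 13.1 to 16.5 FPKM in cFos libraries and 9.03 to 20.3 FPKM in Luc libraries.

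A list of 43 other replication genes (remaining complex subunits, origin firing factors, fork protection, topoisomerases and nucleotide enzymes) was set beside these. In it, 0 of 43 were called by limma in either direction (background 2.62% lower and 2.92% higher). With the clone as a block it was again 0 (background 4.28% lower and 4.51% higher). At an unadjusted p under 0.05, 2 were lower (background 11.1%), and the median difference was -0.17. The clone medians of this list were -0.40, -0.21, 0.30 and -0.10 in clones 2, 4, 8 and 12, of the same signs as those of the 36 genes. Luc 8 was the lowest Luc library for 29 of 43 (background 37.1%). Top1, the topoisomerase that relaxes supercoils ahead of the fork, had the smallest p, with 21.5, 25.7, 23.2 and 29.0 FPKM in cFos 2, 4, 8 and 12, against 33.7, 34.5, 36.7 and 29.2 FPKM in Luc 2, 4, 8 and 12 (log2 difference -0.43, limma adjusted p = 0.11). For Top1 it was Luc 8 that was highest. Dscc1, of the alternative clamp loader, measured 1.92 to 3.53 FPKM in cFos libraries and 2.56 to 5.14 FPKM in Luc libraries, and Mcm9, of a related helicase, 2.24 to 3.37 FPKM in cFos and 2.68 to 5.06 FPKM in Luc libraries. Gmnn, the inhibitor of Cdt1, measured 13.9, 15.8, 15.6 and 19.2 FPKM in cFos 2, 4, 8 and 12, against 27.0, 20.8, 7.83 and 20.7 FPKM in Luc 2, 4, 8 and 12, with Luc 8 lowest as for the licensing genes. It was chosen after its values were seen.

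Of 33 G1/S regulators, 30 could be tested and 0 were called by limma with the arm alone (background 2.62% lower and 2.92% higher). With the clone as a block Cdkn1a, given below, passed as higher (background 4.51%). The block count over the whole list is not given here. At an unadjusted p under 0.05, 4 were lower (background 11.1%) and 3 higher, for which no background was counted. The median difference was -0.10, with clone medians of -0.20, -0.14, 0.29 and -0.19 in clones 2, 4, 8 and 12. Cdkn1a, the kinase inhibitor p21 and a known p53 target, measured 10.2, 5.27, 3.36 and 15.5 FPKM in cFos 2, 4, 8 and 12, against 2.55, 1.06, 0.311 and 3.89 FPKM in Luc 2, 4, 8 and 12. It was higher in cFos in every clone, clone 8 had the lowest value in each arm, and the difference was 1.96 ± 0.59 (log2, SE; limma adjusted p = 0.096, and 0.0023 with the clone as a block). Cdkn1b, the inhibitor p27, measured 16.1, 17.2, 19.0 and 21.2 FPKM in cFos 2, 4, 8 and 12, against 28.8, 23.7, 27.7 and 22.9 FPKM in Luc 2, 4, 8 and 12 (log2 difference -0.48, limma adjusted p = 0.081). Rb1, the retinoblastoma protein, measured 4.30 to 6.20 FPKM in cFos libraries and 3.0039 to 3.81 FPKM in Luc libraries (0.50, adjusted p = 0.11). For Cdkn1b and Rb1 the arms did not overlap, and Luc 8 lay with the other Luc libraries or at their edge.
Among the cyclins, Ccne1, the S phase entry cyclin, measured 6.92, 9.13, 12.8 and 10.4 FPKM in cFos 2, 4, 8 and 12, against 11.6, 13.9, 6.81 and 14.2 FPKM in Luc 2, 4, 8 and 12, with Luc 8 lowest again. Ccnd1 measured 64.6, 59.4, 107 and 41.4 FPKM in cFos 2, 4, 8 and 12, against 46.5, 39.7, 37.8 and 56.5 FPKM in Luc 2, 4, 8 and 12. Its highest value was in cFos 8 and its lowest in Luc 8. Ccnd2 measured 68.5 to 96.5 FPKM in cFos libraries and 95.3 to 135 FPKM in Luc libraries, Ccnd3 19.9 to 31.4 FPKM in cFos and 24.6 to 41.4 FPKM in Luc libraries, Ccne2 8.08 to 9.91 FPKM in cFos and 4.10 to 9.02 FPKM in Luc libraries, and Ccna2 33.4 to 61.7 FPKM in cFos and 30.7 to 56.2 FPKM in Luc libraries. Cdkn2a, summed over 2 transcript entries that need not both encode a kinase inhibitor, measured 143 to 246 FPKM in cFos libraries and 149 to 308 FPKM in Luc libraries. The shorter entry measured 26.8 to 100 FPKM in cFos and 55.4 to 91.4 FPKM in Luc libraries. The longer measured 75.9 to 161 FPKM in cFos and 93.3 to 250 FPKM in Luc libraries. The kinase inhibitor gene Cdkn2b measured 21.4 to 74.97 FPKM in cFos and 34.96 to 93.5 FPKM in Luc libraries, and Cdkn2c 14.1 to 22.6 FPKM in cFos and 15.9 to 31.5 FPKM in Luc libraries. Cdkn2d measured 5.65 to 9.31 FPKM in cFos and 6.54 to 10.3 FPKM in Luc libraries, and Cdkn1c was too low to be tested, at 0.147 to 0.474 FPKM in cFos and 0.620 to 2.34 FPKM in Luc libraries.

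The 25 mitosis genes had the same division of clones. They were lower in the cFos library for 25, 22, 0 and 23 of 25 genes, taking clones 2, 4, 8 and 12 in turn. The backgrounds were 54.7%, 62.1%, 51.9% and 51.8%, and the median differences were -0.91, -0.24, 0.86 and -0.32, in that order. None of the 25 was called by limma with the arm alone (background 2.62% lower and 2.92% higher). In that fit 0 had an unadjusted p under 0.05 (background 11.1% lower). Luc 8 was the lowest Luc library for 25 of 25 (background 37.1%). Unlike the replication genes by count, cFos 8 was the highest cFos library for 23 of the 25, against 15 of the 36 (background 25.9%). Whether the lists differ was not tested. Plk1, a mitotic kinase, measured 9.93, 14.2, 23.5 and 8.73 FPKM in cFos 2, 4, 8 and 12, against 28.1, 20.6, 10.4 and 20.3 FPKM in Luc 2, 4, 8 and 12, and was called lower only without clone 8. Kif20a, a kinesin of cytokinesis, measured 22.5 to 39.0 FPKM in cFos and 25.7 to 48.9 FPKM in Luc libraries, and Bub1b, of the spindle checkpoint, 15.3 to 24.1 FPKM in cFos and 16.7 to 32.6 FPKM in Luc libraries. Low replication RNA in Luc 8 stood beside low mitosis RNA in the same library. Luc 8 also had a Fos level of 302 FPKM and a stromal marker sum of 10236 FPKM, most of it Cxcl12. The part of these in the result was not tested.

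**Figure D5:**
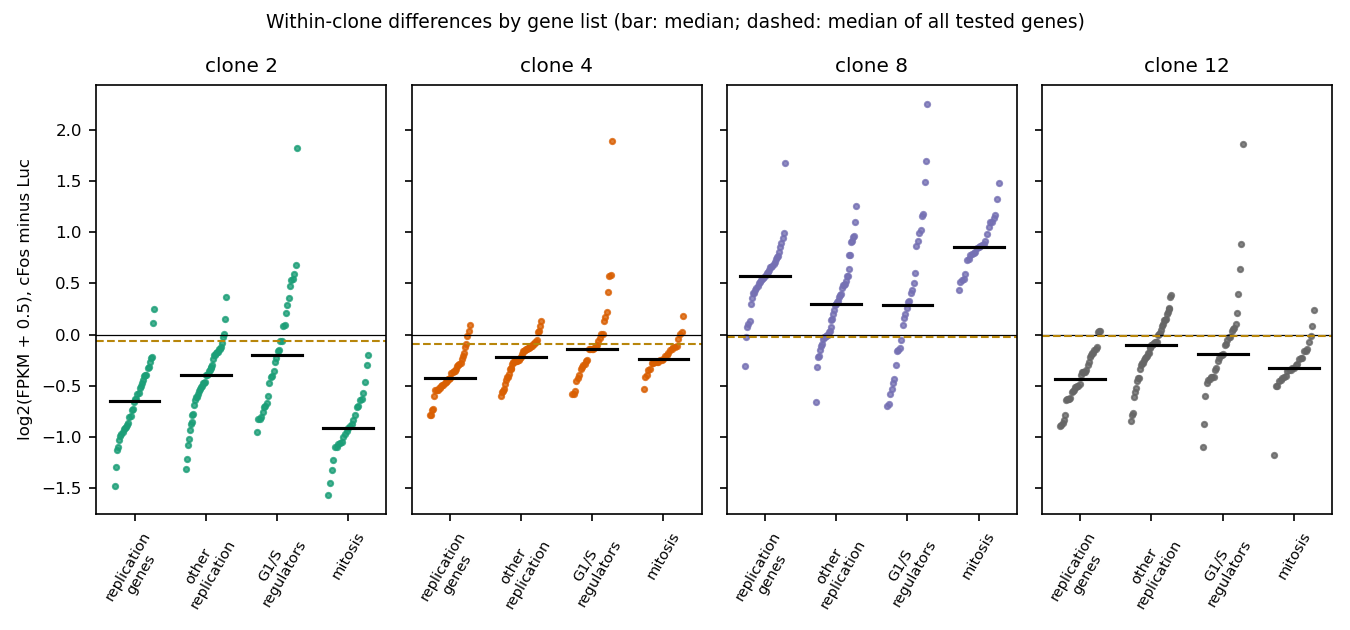
Difference of log2(FPKM + 0.5) between the cFos and the Luc library of each clone, 1 point per tested gene, for the 36 replication genes, 43 other replication genes, 30 G1/S regulators and 25 mitosis genes. Black bars are list medians and the dashed line is the median of all tested genes; the median of the 36 genes is 0.57 in clone 8 and -0.65, -0.43 and -0.44 in clones 2, 4 and 12.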

How the data were processed

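Illumina TruSeq libraries were made from the RNA of 8 cultures, per the labels' protocols. The submitters' processing notes name build mm9 and the tools CASAVA 1.8.2, TopHat and Cufflinks; their options, strand handling and annotation are not stated in those notes. Per the file headers, the deposited tables give for each RefSeq transcript an FPKM with confidence limits and a coverage (a signal, mean depth per base), used here for depth alone. The FPKM values are the authors' model estimates, so near-identical genes can trade reads. The tables hold no read numbers, and counting intervals were not made.

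Of 30769 entries, 362 could not be given a symbol and kept their accession. FPKM were summed per symbol into 23503 genes, less 3 with a failed status in any library. limma 3.58.1 in R 4.3.3 (lmFit, eBayes with trend) was run on log2(FPKM + 0.5). A gene was tested if 4 or more of the 8 libraries had 1 FPKM, which left 11162. A call needed a two-sided p, adjusted by Benjamini-Hochberg over these genes, under 0.05. The model held the arm alone. Alternatives included the clone as a block, other pseudocounts, filters and scalings, and each library left out. Same-numbered libraries are the same clone line, and their deviations from the arm means correlated at 0.17, 0.59, 0.35 and 0.44 in clones 2, 4, 8 and 12, so the numbers pair the samples. The clone 8 term came from a model of clone, arm and arm in clone 8. The fit of arm, the same with the clone as a block and the clone 8 term were tested on simulated data. There the clone 8 term found far fewer of the added differences of a given size than the other fits. The fits with libraries left out or over single transcripts were not tested on simulated data. Python 3.11.15 with pandas 2.3.3 read the tables.

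The genes and lists were chosen with earlier results of these data known. Genes with values in all libraries are, per role, the one with the highest mean FPKM and the one with the smallest p, and the 4 with the largest clone 8 terms. Of the other lists (other replication genes, G1/S regulators, mitosis genes), up to 3 genes with the smallest p are named, plus cyclins and kinase inhibitors. Other genes given library by library were chosen after their values were seen.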

Additional observations from a re-analysis of the deposited data

Results flagged for a closer look

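In 8 of the 72 sets of 4 libraries (36 genes in 2 arms), 1 library stood far from the other 3 of its arm. Chance alone gives about 1 in 20 such sets, and over all tested genes the share was 5.72% in the cFos arm and 7.14% in the Luc arm. In the cFos arm, Mcm3 was low in cFos 2 at 19.6 FPKM, Cdt1 was high in cFos 4 at 16.2 FPKM, Cdc45 was low in cFos 2 at 11.8 FPKM, and Lig1 was high in cFos 8 at 24.2 FPKM. In the Luc arm, Mcm4 was high in Luc 2 at 66.2 FPKM. Luc 8 was the low library for Mcm5 at 14.4 FPKM, Orc6 at 18.6 FPKM and Cdc45 at 7.15 FPKM, while a low outlying Luc 8 was found for 1.43% of all tested genes.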

How the results depend on the processing

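The count of replication genes called lower in cFos was 0 under the other pseudocounts, filters and scalings and with the clone as a block. It was 1 without clone 8, 7 without clone 8 and with the block, and 0 to 6 when single libraries were left out, with 6 only without Luc 8. None was called higher under any of these. Over all tested genes, 293 were called lower and 326 higher. Without a filter 175 were lower, with the block 478 were lower and 503 higher, and without clone 8 190 were lower. With single libraries left out, 85 to 295 were lower and 150 to 319 higher, the lowest counts being those without cFos 2. For the clone 8 term, 2 genes were lower and 5 higher. With a pseudocount of 0.1, 3 were higher; with a pseudocount of 1, 1 was lower and 3 were higher; with median scaling, 1 was lower and 1 higher. With clone 2, 4 or 12 left out, 1 to 64 were lower and 5 to 64 higher, of which 0 to 1 was a replication gene, Rrm2. Both counts of 64 were those without clone 2.

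The cFos minus Luc sign turned for 4 named genes whose differences were near 0: Rpa1 (0.041 with median scaling, 0.022 with upper quartile scaling, -0.25 to 0.087 with single libraries left out), Rrm2 (-0.54 to 0.28), Gins4 (-0.24 to 0.0014) and Uhrf1 (-0.48 to 0.033). The cause of these changes was not tested. Among the named genes' cFos minus Luc differences under alternatives, 304 kept sign and side of the threshold and 10 newly passed it, each of them without Luc 8 or without clone 8. All 36 clone 8 terms stayed above 0 in every alternative tried that kept the gene, and 3 genes were not tested under the filter of 5 FPKM. The tables hold no read numbers, so what depth limits was not measured.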
